A study of Camponotus fellah with 299 samples.

Results

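The 100 genes described here were near silent or low in most brains of the carpenter ant Camponotus fellah and reached high levels in a few. They were chosen by their measured expression alone, among 14664 gene models, on a scale of counts per M counted reads (CPM, where M is 1e+06 and the count is divided by the library total). A gene qualified with a CPM of 20 or more in its third-highest ant, as 7429 genes did, and the 100 with the largest ratio of third-highest to median CPM were kept, with the median floored at 0.1. Requiring 3 high ants keeps a single odd library from choosing a gene. The choice used the expression values of all ants, 289 with full labels and 10 without, and none of their labels. The levels and the sharing of high ants are therefore descriptions, and only the relation of the levels to the labels was tested.

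Each library holds the RNA of 1 worker's brain, taken after the behaviour of its colony had been tracked for a week. Colony 2 gave 90 ants, 87 of them with full labels, and colony 3 gave 98 with full labels and 6 without. Colony 4 gave 69 ants of low, 11 of intermediate and 24 of high maturity and 1 without full labels. A single ant is named below by its title in the labels, such as col2_012 for ant 12 of colony 2. The labels give age in months, body length, tallies of behaviours, a nurse-forage ratio and a maturity value between 0 and 1. They define neither of these scales nor the unit of body length, and they give no strain, genotype or treatment. Maturity is used as deposited in colonies 2 and 3 and as 1 minus the deposited value in colony 4, where it ran against age and with brood care, and is called oriented maturity. Low, intermediate and high maturity mean below 0.25, from 0.25 to 0.75, and above 0.75, with 162, 40 and 87 ants. The other 10 ants carry no labels beyond colony and enter no test.

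In ant colonies, workers tend to care for brood inside the nest when young and to forage when older, and carpenter ant workers also differ in body size. The question was whether ants that share a high-expressing gene also share a role, an age, a size or a colony. The identifiers are not paired with gene names here, so no gene can be given a function, and the brain origin of the libraries could not be checked against marker genes. Each library is 1 whole brain measured once, so more cells of a type and more RNA per cell cannot be told apart, and nothing is known of how long a high level lasted. Library totals ran from 19.82 to 73.22 M reads, with a median of 38.33 M, so that 1 CPM stands for at least about 19.82 reads.

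The gene with the largest ratio, evm.model.ctg314.7, had a median of 0.133 CPM and reached 134.7, 130.5 and 129.5 CPM in its 3 highest ants, a ratio of 971.5. These 3 ants came from 3 different colonies. The next gene, evm.model.ctg53.29, had a median of 0.0541 CPM and reached 145.6, 70.5 and 63.7 CPM, each time in colony 2, a ratio of 637.3. The third, evm.model.ctg45.35, had a median of 0.463 CPM and reached 674.0, 277.2 and 263.4 CPM, a ratio of 569.4. Its highest ant, col3_002, is among the 10 without labels. The ratio had a median of 24.4 over the 100 genes. The last genes inside the bound, evm.model.ctg47.9, evm.model.ctg17.54 and evm.model.ctg199.4, had ratios of 7.24, 7.11 and 6.38. The first outside it, evm.model.ctg26.114, evm.model.ctg21.15 and evm.model.ctg10.13, had ratios of 6.33, 6.29 and 6.25, so no gap separates the set from the genes that follow. Third-highest levels ran from 20.6 to 433.7 CPM. In 6 genes the median was under the floor of 0.1 CPM, 57 genes had no read in at least 1 ant, and 2 had none in most of the ants.

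A gene is said to burst in an ant where its level was at least 20 CPM and at least 10 times its median. The word stands for a high level in that ant at the time of sampling. By this definition the 100 genes burst in 1293 of the gene and ant combinations, 4.32% of them. A gene burst in a median of 7.5 ants, with a lowest value of 0. In 5 genes, with ratios of at most 8.03, no ant passed the definition, and the name of the set does not suit them. Another 37 genes burst in 1 to 5 ants, 34 in 6 to 15 and 22 in 16 to 50. The other 2 genes, singled out after their values were seen, burst in over 50 ants and do not suit the name either. They are evm.model.ctg717.2 with 65 burst ants, and evm.model.ctg232.11 with 67 in colony 2, 56 in colony 4 and 1 in colony 3.

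Bursts were spread over most ants and piled up in a few. At least 1 gene burst in 271 ants and none in 28, and the median ant had 3 bursting genes. In 31 ants 10 or more genes burst, and in 8 ants 20 or more. col2_012, 11 months old and of low maturity, had 47 bursting genes, the most of any ant. col4_075, 3 months old and of low maturity, had 33, and col2_066, 4 months old and of low maturity, had 27. The 10 ants with the most bursts held 252 bursts, 19.5% of the total. The summed level of the 100 genes was lowest at 193.8 CPM, had a median of 594.8 CPM and was highest at 5351 CPM, or 0.535% of the library, in col4_038. The number of bursting genes moved little with library total, with a Spearman correlation of -0.047 over all ants.

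**Figure D1:**
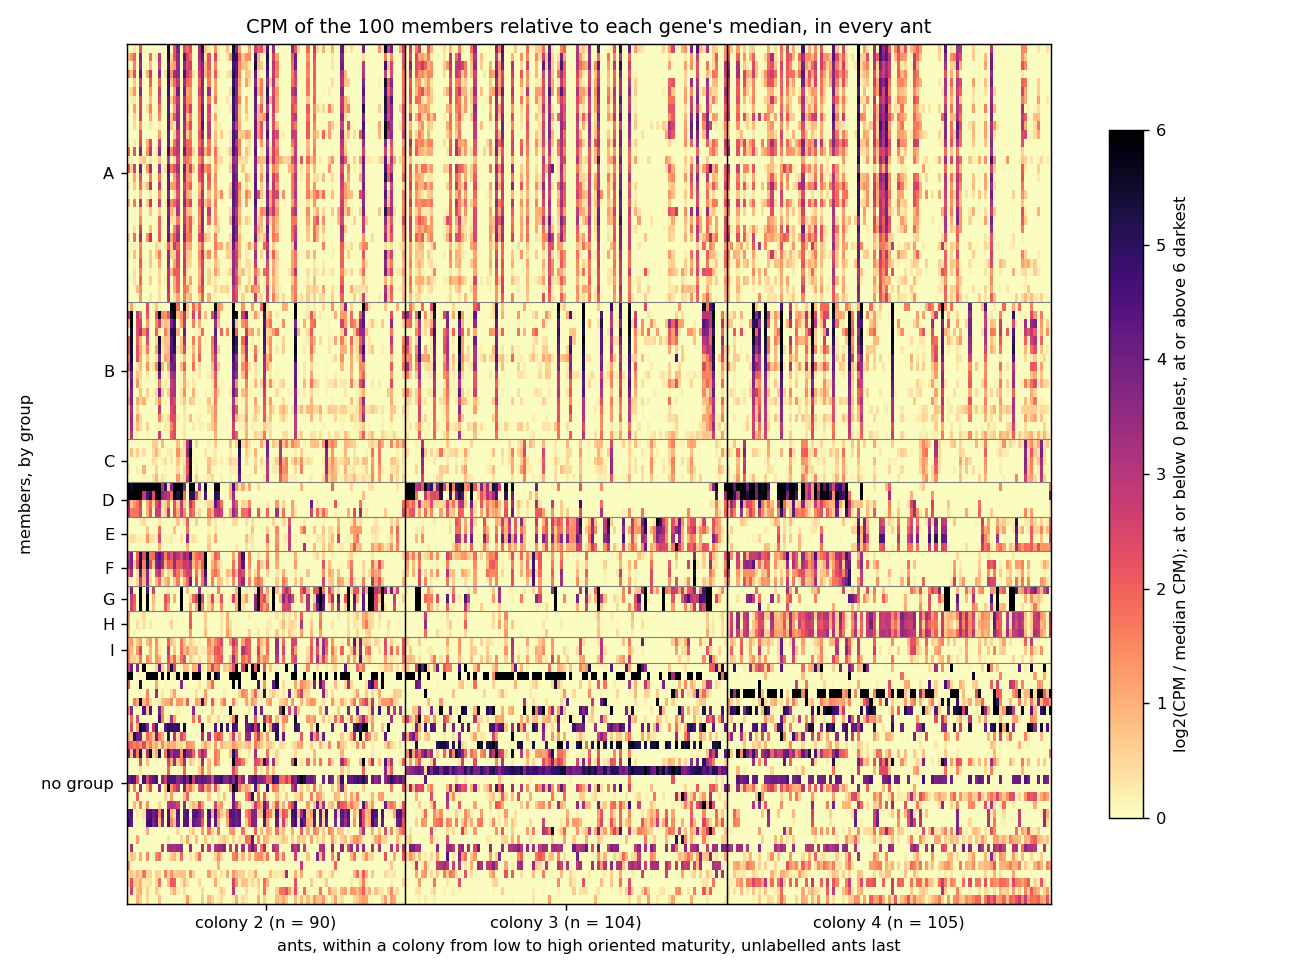
Level of each of the 100 genes (rows, by group) in each ant (columns, by colony and from low to high oriented maturity), as log2 of CPM over the gene's median, from palest at or below 0 to darkest at or above 6. Dark vertical streaks through groups A and B are single ants in which many genes of a group were high together, and dark horizontal bands among the genes in no group are genes high in many ants, some mainly in 1 or 2 colonies and others in all 3.

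The genes fell into groups whose levels varied together over the ants. Joining genes by their mean Pearson correlation of log2(CPM + 1) over all ants, down to 0.6, gave 9 groups of 3 or more genes holding 72 of the 100, here named A to I by size. The other 28 genes joined no such group, and 18 of them joined no other gene at all. The groups were formed from these values, so the correlations describe them and test nothing. A high correlation did not always come with shared burst ants. In group B all 12 burst ants of evm.model.ctg119.4 were among the 37 of evm.model.ctg59.13, while evm.model.ctg31.122 and evm.model.ctg31.5 had 0 burst ants. In group H evm.model.ctg460.4 and evm.model.ctg460.3 burst in 5 and 6 ants and shared 2. Grouping the same 100 genes without the 1, 3 or 10 ants with the most bursts again gave 9 groups each time. The 30 genes of group A and the 16 of group B each stayed together in 1 group. Whether other genes joined them was not counted. This check was added after the values were seen, and the genes had been chosen with these ants included.

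Group A held 30 genes, and the mean correlation between pairs of them was 0.80. At least 1 of them burst in 41 ants, and 50% or more of them in 7 ants. Of these 7, colony 2 held 5 and the other colonies 1 each. They were 2 to 20 months old, with a median of 9 months. In maturity 3 of them were low, 3 intermediate and 1 high, which is 1.85%, 7.5% and 1.15% of the ants of these classes. Their libraries held 31.7 to 50.5 M reads. col2_012 and col4_075 each had 27 of the 30 genes bursting, and col2_066 had 21. The summed level of the group was lowest at 18.98 CPM, had a median of 96.7 CPM and reached 2047 CPM in col4_075. The group also varied together below the burst level, since its mean correlation over the 258 ants with no burst in it was 0.66. Outside the 100 genes, 31 of 10170 genes had a correlation of 0.8 or more with the mean profile of the group, so further genes varied together with the 30. Whether those genes were high in the same ants was not counted. The profile most like it was that of evm.model.ctg384.1, with a correlation of 0.96 over all ants.

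Within group A the gene with the highest third-highest level was evm.model.ctg94.1. Its levels in low-maturity ants ran from 0 to 198.1 CPM with a median of 7.16 CPM, in intermediate ants from 0 to 72.1 CPM with a median of 8.09 CPM, and in high-maturity ants from 0.0444 to 250.6 CPM with a median of 2.51 CPM. The 3 ranges overlap nearly in full, and the highest ant of all, col2_094, is of high maturity. Of the 30 genes, 10 lie on contigs that carry 10 gene models or fewer. Over the 100 genes the number on such short contigs was 20, against 14.7% of all gene models and 3.04% of the 7429 genes that met the level of the choice.

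Group B held 16 genes with a mean correlation of 0.82. In 14 ants 50% or more of them burst, with 3 such ants in colony 2, 4 in colony 3 and 7 in colony 4, aged 1 to 29 months with a median of 11. In maturity 10 of the 14 were low, 2 intermediate and 1 high, and 1 ant had no label. That is 6.17% of the low, 5% of the intermediate and 1.15% of the high-maturity ants. The summed level was lowest at 49.16 CPM, had a median of 83.7 CPM and reached 1800 CPM in col4_038, where 13 of the 16 genes burst. Its gene with the highest third-highest level, evm.model.ctg61.39_evm, ranged from 13.7 to 406.9 CPM with a median of 27.3 CPM in low-maturity ants. In intermediate ants it ranged from 14.2 to 216.2 CPM with a median of 24.4 CPM, and in high-maturity ants from 4.78 to 334.3 CPM with a median of 19.7 CPM. It burst in 3 low-maturity, 0 intermediate and 2 high-maturity ants, and the 3 ranges overlapped. The group burst as a block in few ants, and its mean correlation over the 262 ants with no burst in it was 0.48, lower than that of group A.

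Groups A and B shared some of their ants. Of the 41 ants with a burst in group A, 11 also had one in group B, which is 26.8% of the ants with a burst in A and 29.7% of the 37 with a burst in B. Of the 258 ants with no burst in A, 26 had one in B, or 10.1%. A single ant, col2_012, had 50% or more of both groups bursting, with 27 genes of A and 11 of B. The mean profiles of the groups had a correlation of 0.22 over all ants.

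**Figure D2:**
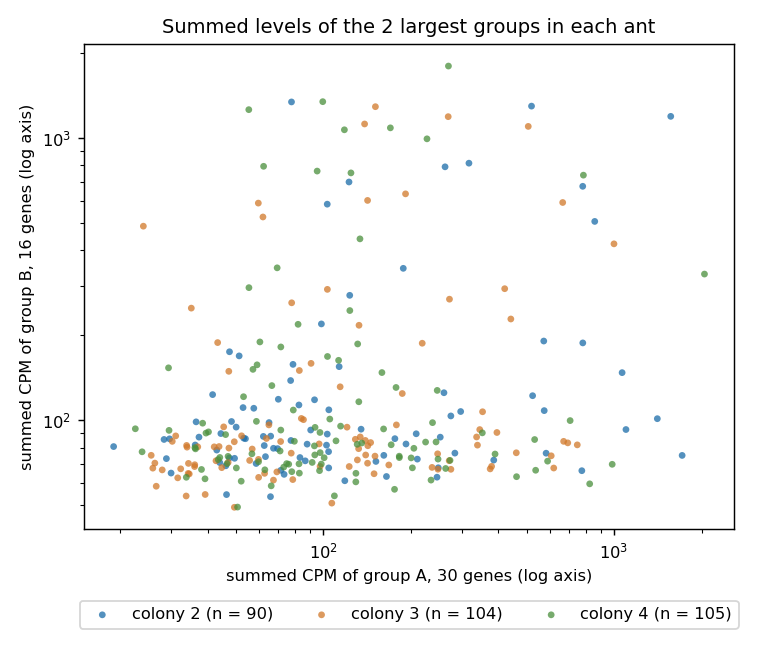
Summed CPM of the 30 genes of group A (horizontal, log axis) and of the 16 genes of group B (vertical, log axis) in each ant, coloured by colony. A burst in both groups occurred in 11 ants, and each colony had ants with 50% or more of the genes of A bursting and ants with 50% or more of those of B.

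The other groups held 5 genes or fewer. Group C, of 5 genes, had 50% or more of them bursting in 4 ants, 3 in colony 2 and 1 in colony 4, aged 5 to 35 months, 2 of low and 2 of high maturity. Its summed level was highest in col2_121, and col2_117 was 1 of 2 ants in which all 5 genes burst. Both named ants were of low maturity, aged 5 and 10 months. Its gene with the highest third-highest level, evm.model.ctg40.38, reached 184.0 and 101.6 CPM in these ants and 56.2 CPM in the third, against a median of 4.14 CPM. Group E, of 4 genes, burst in 1 ant in colony 2, 24 in colony 3 and 11 in colony 4. Its gene evm.model.ctg38.87 had a median of 7.46 CPM and a highest level of 85.7 CPM in colony 2, of 10.1 and 168.3 CPM in colony 3, and of 6.34 and 239.6 CPM in colony 4. It burst in 1, 20 and 11 ants of these colonies, and the summed level of the group had a median of 15.0, 30.0 and 15.3 CPM, so colony 3 had the higher median. Ants with 50% or more of the group bursting numbered 0, 7 and 7. Group F, of 4 genes, had 50% or more of its genes bursting in 9 ants, 8 of low and 1 of high maturity. In this group evm.model.ctg51.50 was highest in the high-maturity ant, col3_029, aged 31 months, ahead of 99.9 CPM in the next ant, col2_063. Group I held 3 genes and had 50% or more of them bursting in 2 ants.

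Group D comprised evm.model.ctg53.29, evm.model.ctg53.31, evm.model.ctg75.11 and evm.model.ctg8.234, and 50% or more of them burst in 10 ants, all of low maturity and 9 of them of colony 4. At least 1 of them burst in 11 ants in colony 2, 5 in colony 3 and 12 in colony 4. By maturity these were 25 low, 1 intermediate and 2 high. evm.model.ctg53.29 burst in 15 ants, all of low maturity. In low-maturity ants it ranged from 0 to 145.6 CPM with a median of 0.581 CPM, in intermediate ants from 0 to 0.467 CPM and in high-maturity ants from 0 to 0.380 CPM, with a median of 0 in both. It had no read in 37 of 162 low, 28 of 40 intermediate and 61 of 87 high-maturity ants. evm.model.ctg53.31 had its highest ants in colony 4 and peaked at 80.1 CPM in low-maturity ants, 0.0578 CPM in intermediate ants and 0.179 CPM in high-maturity ants. It had no read in 52, 35 and 72 ants of these classes. High levels of the pair were therefore seen in low-maturity ants, and the low-maturity range reached down to 0 and covered the others. evm.model.ctg75.11 reached 2560 CPM in col4_038, the highest level of any of the 100 genes, and 1313 CPM in col4_024. Its median was 23.0 CPM in low, 8.33 CPM in intermediate and 4.43 CPM in high-maturity ants, and 1 high-maturity ant stood at 237.0 CPM.

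Group G was made of evm.model.ctg314.7, evm.model.ctg45.35 and evm.model.ctg140.3, which lie on 3 contigs, and it was nearly all or none. The first burst in 23 ants, and all 23 were among the 25 burst ants of the second. Across all ants evm.model.ctg314.7 had no value between 3.83 and 20.9 CPM, and evm.model.ctg45.35 none between 12.8 and 32.5 CPM. evm.model.ctg140.3 had none between 2.00 and 6.41 CPM, with 25 ants above. Of the 25 high ants of these last genes, colony 2 held 12, colony 3 held 8 and colony 4 held 5. In this group 50% or more of the genes burst in 6 low, 5 intermediate and 11 high-maturity ants and in 1 ant without labels, aged 2 to 40 months where an age is given. That is 3.70% of the low, 12.5% of the intermediate and 12.6% of the high-maturity ants. The highest sum, 767.6 CPM, was in the unlabelled col3_002.

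Group H consisted of 3 gene models with neighbouring numbers, evm.model.ctg460.2, evm.model.ctg460.3 and evm.model.ctg460.4, with a mean correlation of 0.95. All of their bursts were in colony 4. evm.model.ctg460.2 ranged from 2.13 to 27.5 CPM with a median of 5.33 CPM in colony 2, from 1.05 to 45.6 CPM with a median of 3.77 CPM in colony 3, and from 3.90 to 122.6 CPM with a median of 26.0 CPM in colony 4. The ranges overlap, and colony 4 was higher as a whole, not only in a few ants. Outside the 100 genes the profile most like the group's was that of evm.model.ctg460.1, the model before them by number, with a correlation of 0.95. Of the 100 genes 19 have another of the set next to them by number. Reads of adjoining or near-identical models cannot be assigned with certainty where the counting rules are not given, so such neighbours are not independent genes with certainty.

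Some of the genes in no group burst in many ants, and the following were singled out after their values were seen. evm.model.ctg164.51 burst in 47 ants of colony 3 and in no ant of the other colonies. No ant had a level between 3.69 and 20.1 CPM. In colony 3 its burst ants made up 14 of the 24 high-maturity ants and 20 of the 55 low-maturity ants. evm.model.ctg250.7 burst in 40 ants in colony 2, 0 in colony 3 and 4 in colony 4, and evm.model.ctg250.5, on the same contig, burst in 36, 0 and 3. Of their 44 and 39 burst ants 38 were shared. evm.model.ctg134.3 burst in 42 ants in colony 4 and 1 in colony 3. In colony 4 the bursts came to 6 of 24 high-maturity and 33 of 69 low-maturity ants. evm.model.ctg717.2 was at 40.9 CPM or more in 41 ants in colony 2, 57 in colony 3 and 51 in colony 4, and at 12.0 CPM or less in all other ants. Of the 88 genes with 3 or more burst ants, 13 burst in a single colony, 2 of them in colony 2, 7 in colony 3 and 4 in colony 4, while 54 of the 100 burst in all 3 colonies. The 13 had from 3 burst ants, as in evm.model.ctg27.87, to 47 in evm.model.ctg164.51. With 3 or 4 burst ants, as in several of them, a single colony says little. They include the 3 neighbouring models of group H and 2 models of contig 164. The share among genes outside the 100 was not counted.

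**Figure D3:**
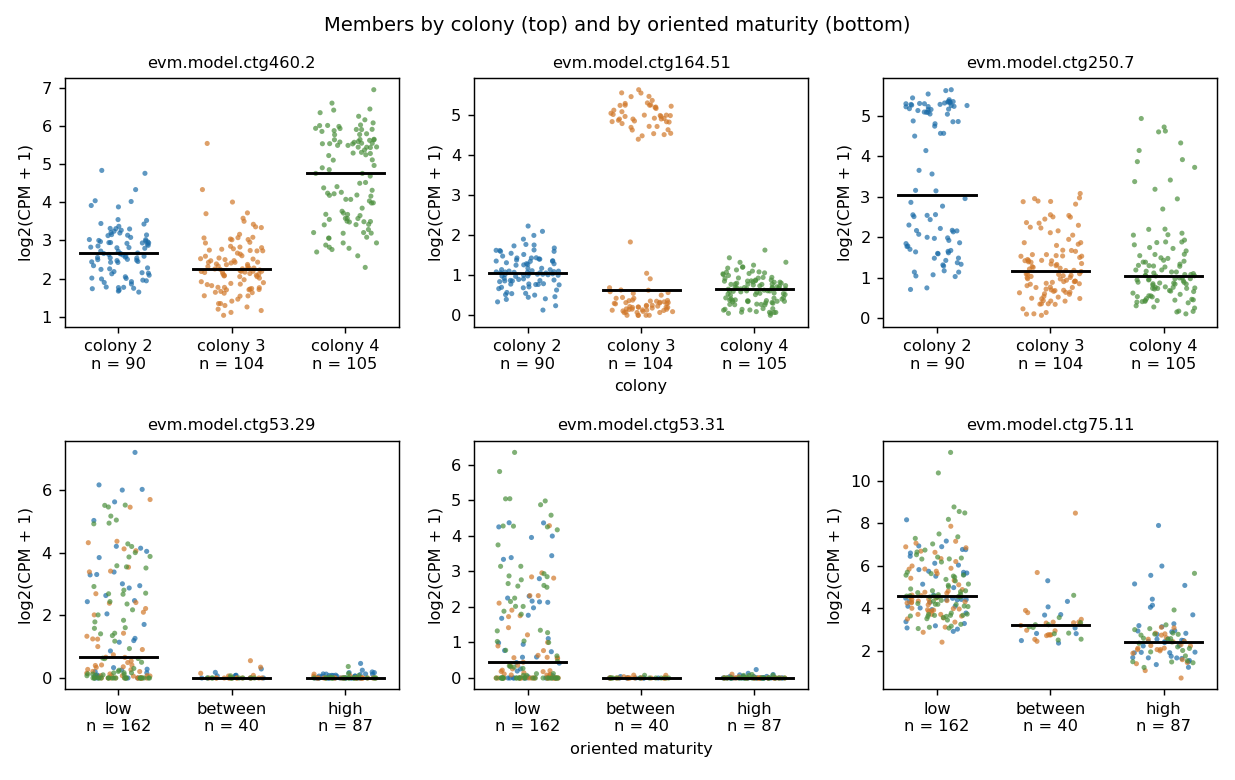
Levels, as log2(CPM + 1), of 3 genes by colony (top) and of 3 genes by oriented maturity (bottom), with 1 point per ant coloured by colony and a bar at the median. evm.model.ctg164.51 forms 2 separate clouds in colony 3 alone, and evm.model.ctg53.29 and evm.model.ctg53.31 reach at most 0.467 and 0.179 CPM in the intermediate and high-maturity ants.

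Ants with many bursts were found in every class of colony, maturity, age, body length and nurse-forage ratio. Of low, intermediate and high-maturity ants, 19 of 162, 7 of 40 and 4 of 87 had 10 or more bursting genes, which is 11.7%, 17.50% and 4.60%. By age the counts were 9 of 63 ants up to 6 months, 7 of 67 from 7 to 12, 12 of 92 from 13 to 24 and 2 of 67 over 24 months. The median ant had 3, 3 and 2 bursting genes in the low, intermediate and high-maturity classes. By colony the counts were 13 in colony 2, 7 in colony 3 and 11 in colony 4. By body length within a colony they were 11 of 95 short, 11 of 97 middle and 8 of 97 long ants. Of the ants with a nurse-forage ratio above 0, 6.86% did so, 7 in number, and of those with a ratio of 0, 23 of 187. These shares are descriptions with no test, since the choice of genes used the values counted here.

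**Figure D4:**
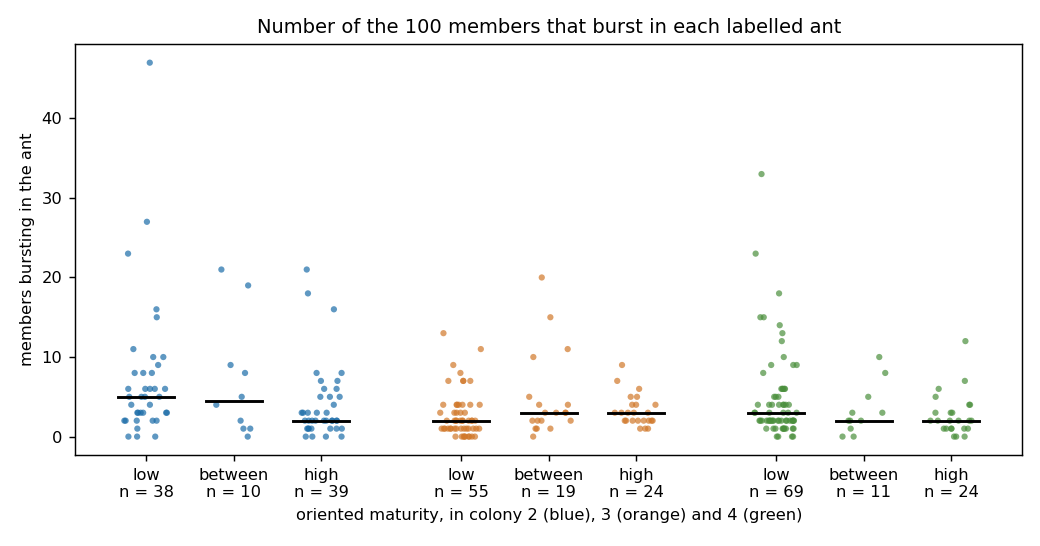
Number of the 100 genes that burst in each of the 289 labelled ants (1 point per ant), by oriented maturity within colony 2 (blue), colony 3 (orange) and colony 4 (green), with a bar at the median. The highest count is 47 in colony 2, and ants with few or no bursts are present in every class.

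The relation of each gene's level to the labels was tested in all 289 labelled ants with colony as a covariate, by edgeR's quasi-likelihood F-test on counts and Benjamini-Hochberg adjustment over the 10266 genes tested, all 100 among them. A gene is called below an adjusted p of 0.05. As a second look that gives single ants no extra weight, each gene's CPM was replaced by normal scores of its ranks and fitted with limma. Both fits concern a gene's level over all labelled ants. A call therefore does not say that the ants in which the gene burst share the label, which was not tested. For oriented maturity, edgeR called 51 of the 100 genes, 11 higher and 40 lower in more mature ants, against 46.4% of all genes tested, 23.7% higher and 22.7% lower. The share called was near that of all genes, and the directions were uneven, with few genes higher. On ranks 61 of the 100 were called, 17 higher and 44 lower, against 48.9% of all genes, 24.0% higher and 25.0% lower. Both fits called 44 genes in the same direction and none in opposite directions. The slope from maturity 0 to 1 had a median of -0.38 on the log2 scale over the 100 genes, and of -0.0016 over all genes tested. In size the median slope was 0.60 for the 100 and 0.070 for all genes, so these genes differed from ant to ant on a larger scale than most, as their choice requires.

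The counts by group come from genes that vary together, and differences between groups were not tested. In group A 15 of 30 fell and in group B 12 of 16, in group D all 4 and in group F 3 of 4. In group E 3 of 4 rose, and in group G all 3. None of the 3 genes of group H was called. Among all genes, 22.7% fell and 23.7% rose. On ranks, the counts were 20 lower and 1 higher in A, 7 lower and 3 higher in B, and the same as with edgeR in D, E, F, G and H. These calls are not counts of burst ants. At least 1 gene of A burst in 14.2% of low, 17.5% of intermediate and 11.5% of high-maturity ants. For B these shares were 16.05%, 17.5% and 3.45%. The largest fall was that of evm.model.ctg53.31, with a slope of -13.2 ± 0.679 (SE, 289 ants; edgeR adjusted p = 5.34e-51), and the next that of evm.model.ctg53.29, with -10.9 ± 0.584 (edgeR adjusted p = 1.9e-48). Such fitted slopes depend on how near-empty ants are treated and are not fold changes between observed levels. The largest fitted rise was that of evm.model.ctg57.66 in group E, with a slope of 1.77 ± 0.185 (edgeR adjusted p = 1.65e-17). In high-maturity ants it ranged from 1.16 to 585.1 CPM with a median of 7.20 CPM, and in low-maturity ants from 0.908 to 54.8 CPM with a median of 3.29 CPM. Without its highest ant, col3_105, aged 45 months, the slope was 1.24 ± 0.162 (edgeR adjusted p = 5.03e-12), and without colony 3 it was 1.07 (edgeR adjusted p = 1.3e-06). evm.model.ctg140.3 rose by 1.46 ± 0.501 (edgeR adjusted p = 0.0106), and it ranged from 0 to 68.7 CPM with a median of 0.125 CPM in high-maturity ants and from 0 to 39.02 CPM with a median of 0 in low-maturity ants. Without colony 4 its slope was 0.81 and was no longer called (edgeR adjusted p = 0.296). With runs of 10 ants in order of ant number within a colony as blocks it was 3.51 (edgeR adjusted p = 3.52e-05). The order of these 2 genes by slope turned without colony 3, where evm.model.ctg140.3 had 1.90, and with the blocks, where evm.model.ctg57.66 had 1.36. It also turned with the 3 highest ants of each gene capped, at 1.37 for evm.model.ctg140.3 and 1.27 for evm.model.ctg57.66.

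Age gave a similar picture, and it moves with maturity in these ants. For age, edgeR called 45 of the 100 genes, 6 higher and 39 lower in older ants, against 43.3% of all genes, 22.0% higher and 21.3% lower. Ranks gave 52 calls, 14 higher and 38 lower, against 45.7% of all genes, 22.1% higher and 23.5% lower. With edgeR, 13 genes of group A, 12 of group B, all 4 of group D and 3 of group F fell with age. On ranks 15 fell and 2 rose in A, 7 fell and 3 rose in B, and the counts in D and F were the same. evm.model.ctg53.29 and evm.model.ctg53.31 fell by 4.22 and 4.12 on the log2 scale per 12 months, with standard errors of 0.277 and 0.274 (edgeR adjusted p = 4.31e-36 and 2.49e-35, 289 ants). In ants up to 6 months evm.model.ctg53.29 ranged from 0 to 145.6 CPM with a median of 4.41 CPM, from 7 to 12 months up to 50.7 CPM with a median of 0.194 CPM, and from 13 to 24 months up to 44.5 CPM with a median of 0.0207 CPM. In ants over 24 months it stayed at or below 0.535 CPM with a median of 0. evm.model.ctg57.66 rose by 0.62 ± 0.079 per 12 months (edgeR adjusted p = 2.77e-12), but only by 0.28 ± 0.079 without col3_105 (edgeR adjusted p = 0.00191), and by 0.12 without colony 3 as a whole, where it was not called (edgeR adjusted p = 0.37). evm.model.ctg88.3 rose by 0.52 ± 0.073 (edgeR adjusted p = 1.37e-10), and its medians were 2.72, 3.23, 4.33 and 4.67 CPM in the 4 age classes from young to old. With the blocks its slope was 0.34 (edgeR adjusted p = 4.44e-05).

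With both labels in the model, 24 of the 100 genes were called for maturity, 7 higher and 17 lower, against 19.1% of all genes, 10.1% higher and 9.0% lower. On ranks 33 were called for maturity, against 21.1% of all genes. For age 11 were called, 2 higher and 9 lower, against 8.24% of all genes, 4.64% higher and 3.6% lower, and 6 genes were called for both. On ranks 8 were called for age, against 8.18% of all genes. All 4 genes of group D and 7 of group A fell with maturity at equal age, and 3 of group E rose. In group B, where 12 of 16 fell with each label alone, edgeR called 2 lower for maturity and 1 lower for age. On ranks 2 of group B were lower and 1 higher for maturity, and 0 were called for age. In group F edgeR called 1 lower for maturity and 0 for age, and ranks 2 lower and 0. None of group G was called in this model by edgeR, while all 3 were on ranks. The count for maturity was 14 without colony 4, 7 higher and 7 lower. The count for age was 6 without colony 2, 3 higher and 3 lower. It was 20 without colony 3, 2 higher and 18 lower, and 7 without colony 4, 1 higher and 6 lower. These counts changed with the colonies included. The larger number of lower genes was not seen for maturity without colony 4, nor for age without colony 2.

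For body length 22 of the 100 genes were called, 7 higher and 15 lower in longer ants, against 29.8% of all genes, 15.3% higher and 14.4% lower. Ranks called 27, 4 higher and 23 lower, against 33.0% of all genes, 16.1% higher and 16.9% lower. Both fits called 11 genes, which is 11 of the 22 and of the 27. Without colony 2 edgeR called 8, 6 higher and 2 lower, so the larger number of lower genes was not seen without that colony. Group A gave 6 genes lower in longer ants with edgeR and 18 on ranks. evm.model.ctg53.29 had a slope of 1.08 ± 0.296 on the log2 scale per unit of body length (edgeR adjusted p = 0.00237), and evm.model.ctg53.31 a slope of 0.77 ± 0.311 (edgeR adjusted p = 0.0475). Neither was called on ranks. With runs of 10 ants as blocks their slopes were 0.43 and 0.29 and not called (edgeR adjusted p = 0.347 and 0.533), and without colony 3 they were not called either (edgeR adjusted p = 0.102 and 0.371). The second was also not called without colony 2 (edgeR adjusted p = 0.148) or without its highest ant (edgeR adjusted p = 0.0535). evm.model.ctg1.451 had a slope of -0.80 ± 0.25 (edgeR adjusted p = 0.00818), and evm.model.ctg245.12 a slope of -0.66 ± 0.141 (edgeR adjusted p = 8.36e-05). Each of these 2 genes burst in 4 ants, and on ranks their slopes had the other sign and were not called. With the blocks their edgeR adjusted p was 0.0616 and 0.976. The first was not called without colony 2 (edgeR adjusted p = 0.294), nor the second without colony 3 (edgeR adjusted p = 0.182).

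The behaviour labels were tested one at a time. For the nurse-forage ratio 42 of the 100 genes were called, 10 higher and 32 lower with a higher ratio, against 37.1% of all genes, 19.2% higher and 17.9% lower. Ranks gave 50, 16 higher and 34 lower, against 39.2%, 19.3% higher and 19.9% lower. Without colony 4 edgeR called 16 higher and 19 lower. For log2(brood care tally + 1) 39 were called, 22 higher and 17 lower, against 45.8% of all genes, 21.9% higher and 23.9% lower. Ranks gave 57, 39 higher and 18 lower, against 48.9%, 25.1% higher and 23.7% lower. Without colony 2 edgeR called 13 higher and 14 lower. For log2(queen attending tally + 1) 50 were called, 29 higher and 21 lower, against 40.4% of all genes, 19.6% higher and 20.8% lower. Ranks gave 46, 26 higher and 20 lower, against 42.6%, 21.0% higher and 21.6% lower. For queen attending the fits shared 34 calls of equal sign, and 2 genes were called with opposite signs. With queen attending 11 of 30 genes of group A fell and none rose, while 13 of 16 genes of group B rose and none fell. On ranks these counts were 7 lower and 4 higher in A, and 2 lower and 8 higher in B. The difference between the groups was not tested.

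Colony was tested with maturity and age in the model, as an F-test of 2 contrasts. It was called for 54 of the 100 genes, against 78.9% of all genes, and on ranks for 56, against 84.8%. The share called was below that of all genes by both fits. None of the 16 genes of group B was called by edgeR, though 4 were on ranks. In group A 11 of 30 were called, in groups C, E, H and I all 5, 4, 3 and 3, and among the genes in no group 22 of 28. The smallest p was that of evm.model.ctg47.8 (edgeR adjusted p = 2.66e-74). In colony 3 it ranged from 0.807 to 33.7 CPM with a median of 15.1 CPM, in colony 2 from 0 to 7.08 CPM with a median of 0.198 CPM, and in colony 4 from 0 to 4.00 CPM with a median of 0.294 CPM. Nearly all of its difference lay between colony 3 and the others, and between colony 2 and colony 4 alone it was not called (edgeR adjusted p = 0.492). evm.model.ctg460.3 of group H came next (edgeR adjusted p = 9.64e-67), with medians of 3.78 CPM in colony 2, 2.60 CPM in colony 3 and 18.0 CPM in colony 4. Each colony was sampled as a whole, so colony, rearing history and the time of collection cannot be told apart.

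**Figure D5:**
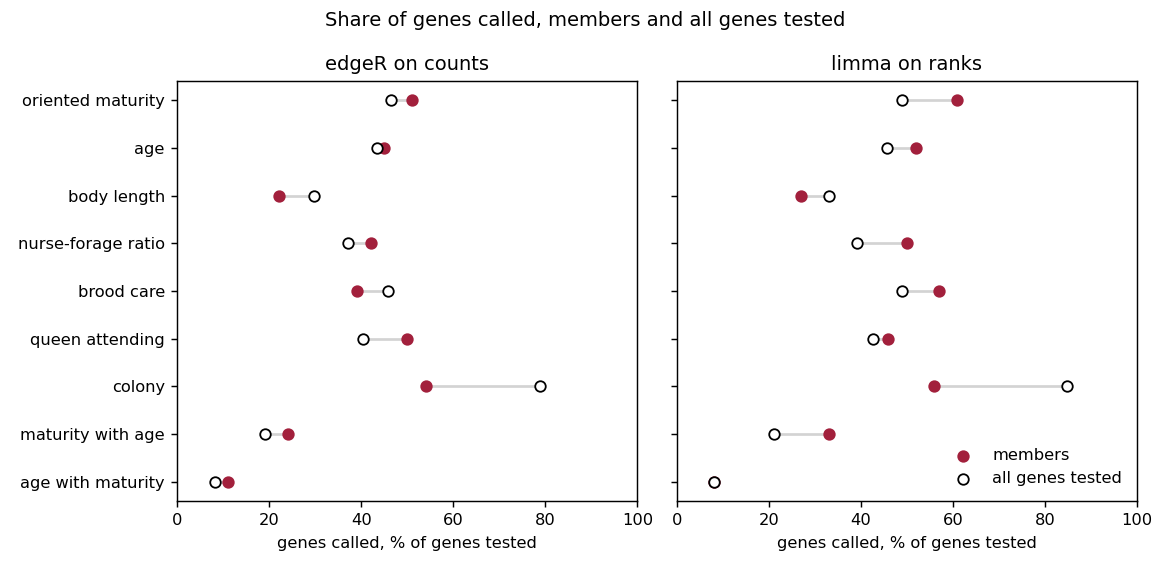
Share of genes called, in % of the genes tested, for each label among the 100 genes (filled) and among all 10266 genes tested (open), by edgeR on counts (left) and by limma on ranks (right). By edgeR the 100 genes lie close to all genes for maturity and age, at 51 of 100 against 46.4% for maturity, while on ranks they lie above them for maturity, at 61 of 100 against 48.9%. For colony they lie below them, at 54.0% against 78.9% by edgeR.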

How the data were processed

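RNA of single brains was extracted with Tri reagent and made into stranded mRNA libraries with a KAPA kit, per the labels' protocols. The authors deposited raw read counts per gene model, not normalized, and STAR and featureCounts are named in the submitters' processing notes. Not given in the sources used here are the tool versions, annotation, build and strand setting. In each library 73.28 to 88.01% of the counts from 1 to 10 were even numbers, so read mates may have been counted singly and the smallest steps may not be single molecules. Without the strand setting, reads of overlapping models on opposite strands cannot be told apart.

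CPM was computed from column sums. Tests used edgeR 4.0.16 (quasi-likelihood, robust, TMM) under R 4.3.3 on genes with CPM of at least 1 in at least 3 ants, and limma 3.58.1 on normal scores of ranks. Standard errors come from the slope and its F statistic. The alternatives were DESeq2 1.42.0 and its size factors, other filters, the 3 highest ants of each gene capped, each colony left out, library size as a covariate, and blocks of ants. The blocks were runs of 10 ants in order of ant number within a colony, and these numbers have gaps. Only the maturity fits, by edgeR and on ranks, were tried on simulated counts, drawn around each gene's mean with no bursts added. The burst rule, the grouping and the tests of other labels were not tried in this way. The genes and groups were chosen with earlier results of these data known. Named genes are the 3 with the largest ratio, 3 on each side of the bound, the gene with the highest third-highest CPM in each of the 6 largest groups, up to 2 called genes with the largest slopes each way for maturity, age and body length, and the 2 with the smallest p for colony. Others were named after their values were seen. Ants of a colony are separate animals, but the labels do not say which shared a batch. The p-values set an effect against the spread between ants within these colonies, and do not cover the spread among colonies at large.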

Additional observations from a re-analysis of the deposited data

Results flagged for a closer look

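The 10 ants whose labels give no age, size or behaviour entered no test, and bursts occurred in them too. In any of these ants 25 of the 100 genes burst, with 33 bursts in all. The unlabelled ants had 0 to 13 bursting genes each, with a median of 1.5, against a median of 3 in labelled ants. In 4 genes the highest of all ants was an unlabelled one, among them evm.model.ctg45.35 at 674.0 CPM in col3_002. In the unlabelled col3_065, 13 genes burst, 9 of them of group B.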

How the results depend on the processing

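Of the recomputed counts and descriptions 9 moved by more than 1.5 times, and all others by 1.5 times or less. Bursts numbered 460 at 30 times the median and 476 at 50 CPM, against 1293. For body length 8 genes were called without colony 2, against 22, and for colony 32 without colony 2, against 54. For maturity with age in the model 14 were called without colony 4, against 24. For age with maturity in the model, against 11, the counts were 6, 20 and 7 without colonies 2, 3 and 4, and 5 with blocks of 10 consecutive ants. Over all alternatives the calls ran from 41 to 61 for maturity, 38 to 52 for age, 8 to 33 for body length and 32 to 59 for colony. For the named genes 160 recomputed values kept their direction and call, 16 kept the direction and lost the call, and 3 changed sign. These 3 are the body-length slopes of evm.model.ctg1.451 on ranks (0.033) and of evm.model.ctg245.12 on ranks (0.037) and with blocks (0.0067). The causes were not tested. Of the 100 genes 87 remained when the second-highest ant set the rule, 80 with the fifth-highest, 99 with TMM scaling and 85 without the 10 ants with most bursts. No paired analysis was possible because ant numbers name single ants and mark nothing shared between colonies. Levels near 0 CPM rest on few reads at the lowest depth of 19.82 M (1e+06) reads.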
